A study of Mus musculus with 6 samples.

Results

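The 9 genes described here encode enzymes that carry, oxidize or hand on one-carbon units bound to folate: Aldh1l1, Aldh1l2, Mthfd1, Mthfd1l, Mthfd2, Mthfd2l, Shmt1, Shmt2 and Mtr. They were taken by gene symbol from the files of 6 libraries of mouse primary oligodendrocyte precursor cells (mOPCs), all 9 were found among the 23038 genes listed, and all 9 passed the filter on low counts (average logCPM over 0), as did 12505 genes in all. The comparison addresses how transcript levels differ after knockdown of Qk, which encodes the RNA-binding Qki proteins. The OPCs were taken from mouse embryos by immunopanning, which captures cells on antibody-coated dishes, and were collected 72 h after transfection. The 3 siNC libraries received control siRNA and the 3 siQk libraries received siRNA against Qk. The study used 3 different Qk siRNAs, and which of them each library received is not given in the sources used here, so that the spread among siQk libraries may include differences between siRNAs.

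Tetrahydrofolate accepts a one-carbon unit mainly when serine hydroxymethyltransferase (SHMT) turns serine into glycine. The unit then serves purine synthesis, thymidylate synthesis, or, through methionine synthase, the methionine cycle that feeds methylation. The pathway runs in parallel in the cytosol and in mitochondria with paired enzymes, and formate made in mitochondria supplies the cytosol. In the brain, Aldh1l1 is best known as a marker of astrocytes.

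The Qk transcript was at 209, 206 and 163 RPKM (reads per kilobase of exon, scaled to library size) in the siNC libraries and at 51.3, 76.6 and 36.2 RPKM in the siQk libraries, so that the libraries matched their labels. Depth ran from 58166490 to 141045937 tags per library. Replicate 1 of siNC had the fewest tags, with 3.12% of them on Rn45s, a precursor of ribosomal RNA, while the other 5 had 0.169% to 0.389%. Olig1, Olig2 and Sox10, which define the lineage, were at 124 RPKM or more in every library, while the 6 fibroblast and vascular markers did not exceed 0.148 RPKM.

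Qki proteins bind ACUAAY in RNA, and the transcripts of 3 of the 9 enzymes carry it in the longest 3'UTR that GENCODE M21 annotates on GRCm38, the assembly also called mm10. The letters searched were ACTAAC and ACTAAT on the transcript strand only. Aldh1l2 held 2 matches in 3129 bases, Mthfd2l held 2 in 1104 bases and Mtr held 3 in 4293 bases. The 3'UTRs of Aldh1l1 (1261 bases), Shmt1 (1040), Mthfd2 (955), Shmt2 (666), Mthfd1l (629) and Mthfd1 (227) held none. Among 10819 tested genes with a 3'UTR of at least 50 bases, 36.2% held a match. Of 3'UTRs of a length similar to that of Aldh1l1, 30.5% did, against 62.4% for the length of Aldh1l2, 70.8% for that of Mtr and 28.6% for that of Mthfd2l. Each match is shown with 12 bases on either side, 5′ to 3′ on the transcript strand, with the searched letters in capitals, because these are the letters known to be bound by the protein that was knocked down.
Aldh1l2, minus strand, chr10:83488162-83488191: agcatcggaagcACTAATtgaactcaacag
Aldh1l2, minus strand, chr10:83487570-83487599: tgcacatgcagcACTAACtgaacagaacag
Mthfd2l, plus strand, chr5:91021241-91021270: gtttgtttgtgtACTAATaatgatccttgt
Mthfd2l, plus strand, chr5:91021315-91021344: tagctgtttatcACTAATatctcaagtgtc
Mtr, minus strand, chr13:12184958-12184987: ctgggctcaaagACTAACgttctaaccggg
Mtr, minus strand, chr13:12184434-12184463: agcacacatgggACTAACtctttctaggtg
Mtr, minus strand, chr13:12183450-12183479: tttttttaagtaACTAATaagggattagct
A match is a description of letters and not a measured binding site. The exon length that the authors used for Mtr was 4402 bases, so that its 4293-base 3'UTR was not counted as a whole together with its coding exons.

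Between siNC and siQk, 4 of the 9 enzymes were called changed (P below 0.01 and FDR below 0.1 in edgeR's quasi-likelihood test over all tested genes), against 31.0% of all tested genes. Aldh1l1 and Mthfd1 were lower, in a background of 17.2% of tested genes called lower. Shmt1 and Mtr were higher, in a background of 13.8% called higher. Aldh1l2, Mthfd1l, Mthfd2, Mthfd2l and Shmt2 were not called. Of these, Aldh1l2 and Mthfd1l missed the P cutoff narrowly (0.0106 and 0.0111 in edgeR, unadjusted), had larger fold changes than Mthfd1, and were called with DESeq2, with no filter on low counts and at FDR below 0.05 alone. A difference between cytosolic and mitochondrial enzymes as groups was not tested. The median log2 fold change of the 9 was -0.089, beside 0.01 over all tested genes, and the members ran from -2.21 (Aldh1l1) to 0.99 (Shmt1). RPKM ranges of the 3 and 3 libraries did not overlap for 6 of the 9, while 58.3% of all tested genes were apart in this way, and after division by TMM factors they were again apart for 6 of the 9, beside 54.3% of all. Scaled by library size alone, without TMM factors, 1365 tested genes were called lower and 2989 higher, against 2149 and 1730, and the median over all of them was 0.16.

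**Figure D1:**
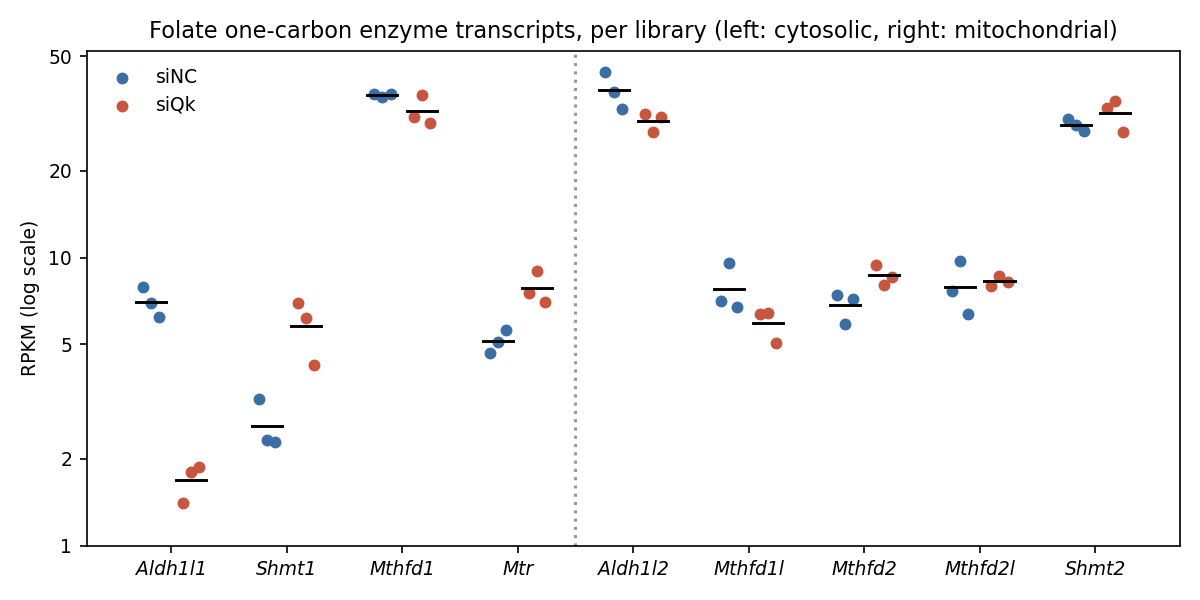
RPKM on a log axis of the 9 enzymes in each of the 3 siNC (blue) and 3 siQk (red) libraries, with black lines at group means and the cytosolic enzymes on the left of the dotted line. Aldh1l1 lies between 6.23 and 7.88 RPKM in siNC and between 1.402 and 1.87 RPKM in siQk, and Shmt1 moves the other way.

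Aldh1l1 (Entrez gene 107747) lies on chromosome 6 from 90486427 to 90600203 on the plus strand and encodes the cytosolic formyl-tetrahydrofolate dehydrogenase, which oxidizes the one-carbon unit to carbon dioxide and frees tetrahydrofolate. It was at 7.88, 6.96 and 6.23 RPKM in the siNC libraries, from 1414, 2379 and 2539 tags. It was at 1.402, 1.81 and 1.87 RPKM in the siQk libraries, from 610, 461 and 730 tags. All 3 siQk libraries thus lay far below all 3 siNC libraries, and siQk replicate 1 was the lowest. The siNC mean of 7.02 ± 0.826 RPKM fell to 1.69 ± 0.254 RPKM in siQk (SD, n = 3 each), which leaves 24.1% of the siNC level. The edgeR quasi-likelihood fit gave a log2 fold change of -2.21 with a standard error of 0.17 and an FDR of 0.000603, which placed it as number 79 from the lowest of the 12505 tested genes. The call was made under each of the 15 alternative settings, with log2 fold changes from -2.31 to -2.05. In GENCODE M21, exons of the antisense gene Gm15756 share 499 bases and those of the lincRNA Gm45901 share 105 bases with the 4516 exonic bases of Aldh1l1. Gm45901 lies on the same strand, the library kit keeps no strand, and neither gene is listed in the files, so that their reads could not be told apart from those of Aldh1l1.

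Since Aldh1l1 is used to mark astrocytes, 10 other astrocyte markers were read beside it. Of these, 4 were lower and none was higher among 8 tested, where 17.2% of all tested genes were called lower, with a median log2 fold change of -0.73. Gfap, the astrocyte intermediate filament, was at 69.1 ± 27.9 RPKM in siNC and fell to 9.85 ± 1.26 RPKM in siQk (SD, n = 3 each). The glutamate transporters Slc1a3 (log2 fold change -1.38) and Slc1a2 (-1.06) and the acyl-CoA synthetase Acsbg1 (-1.17) fell as well. Aldoc (0.034), S100b (0.0069), Fgfr3 (0.21) and Aqp4 (-0.40) were not called. The summed level of the 10 ran from 332 to 453 RPKM in siNC and from 309 to 338 RPKM in siQk. Its largest parts were S100b (mean 139.7 RPKM in siNC and 156.5 in siQk) and Aldoc (94.9 and 108), neither of them called. The sum therefore says little about the 4 genes that fell. The defining astrocyte connexin Gja1 did not exceed 0.013 RPKM and Gjb6 did not exceed 0.009 RPKM in any library, and Aqp4, the astrocyte water channel, stayed between 0.371 and 0.528 RPKM. In bulk RNA, fewer cells of a type and less RNA per cell cannot be told apart.

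Shmt1 (Entrez gene 20425, chromosome 11, 60788104 to 60811718, minus strand) encodes the cytosolic SHMT, which moves a carbon from serine to tetrahydrofolate. It was at 3.22, 2.32 and 2.28 RPKM in siNC and at 6.97, 6.15 and 4.23 RPKM in siQk. The lowest siQk library, replicate 3, still lay above the highest siNC library, replicate 1. The mean rose from 2.61 ± 0.533 to 5.78 ± 1.404 RPKM (SD, n = 3 each), and the edgeR fit gave a log2 fold change of 0.99 with a standard error of 0.24 and an FDR of 0.0196. It stayed positive under all 15 alternative settings, from 0.83 to 1.22. The call was lost without siNC replicate 2 (0.90), siNC replicate 3 (0.88), siQk replicate 1 (0.83) or siQk replicate 2 (0.96). On the opposite strand, exons of Smcr8 share 184 bases with Shmt1, 4.74% of its exonic bases, and Smcr8 was at 6.98 to 7.45 RPKM in siNC and 7.91 to 8.19 RPKM in siQk.

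Mtr (Entrez gene 238505, chromosome 13, 12182712 to 12258113, minus strand) encodes methionine synthase, the cobalamin enzyme that passes the methyl group of folate to homocysteine. It was at 4.66, 5.10 and 5.61 RPKM in siNC and at 7.53, 8.97 and 6.99 RPKM in siQk. No siQk library reached down into the siNC range. The mean rose from 5.12 ± 0.474 to 7.83 ± 1.03 RPKM (SD, n = 3 each), and edgeR gave a log2 fold change of 0.46 with a standard error of 0.10 and an FDR of 0.0145. The value ranged from 0.36 to 0.61 over the 15 alternatives, and the call was lost under 3 of them, including the fits without siNC replicate 1 (0.44) or siNC replicate 2 (0.45). Mtrr, which reactivates Mtr, had a log2 fold change of 0.055 with a 95% interval from -0.12 to 0.23 and was not called.

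Mthfd1 (Entrez gene 108156, chromosome 12, 76255298 to 76319803, plus strand) is the cytosolic enzyme that interconverts the methylene, methenyl and formyl forms of the folate-bound unit and loads formate onto folate. It was at 36.9, 36.0 and 37.1 RPKM in siNC and at 30.7, 36.6 and 29.3 RPKM in siQk. In RPKM the groups overlapped through siQk replicate 2, and they did not once each value was divided by the TMM factor of its library (37.4 to 41.1 in siNC, 28.1 to 34.4 in siQk). The edgeR quasi-likelihood fit gave a log2 fold change of -0.34 with a standard error of 0.091 and an FDR of 0.0265. This was the weakest of the 4 calls: it was lost under 8 of the 15 alternatives, among them library size only (-0.19), upper quartile factors (-0.28), and the fits without siNC replicate 1 (-0.30), siNC replicate 2 (-0.37), siNC replicate 3 (-0.36), siQk replicate 1 (-0.31) or siQk replicate 3 (-0.28).

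Among the mitochondrial enzymes, Aldh1l2 (Entrez gene 216188, chromosome 10, 83487450 to 83534140, minus strand) is the paralog of Aldh1l1 and carries out the same oxidation in mitochondria. It was at 43.9, 37.5 and 32.7 RPKM in siNC and at 31.4, 27.4 and 30.8 RPKM in siQk. The groups did not overlap, but siNC replicate 3 and siQk replicate 1 lay close together. The log2 fold change was -0.51 (95% interval -0.86 to -0.16). The FDR from edgeR was 0.0337, and the unadjusted value of 0.0106 lay just over the cutoff for a call. It was called under 4 of the 15 alternatives, including the fit without siNC replicate 3 (-0.63). The exons of D10Wsu102e on the opposite strand share 1056 bases with Aldh1l2, 14.1% of its exonic bases, and D10Wsu102e was at 9.29 to 10.6 RPKM in siNC and at 12.3 to 15.1 RPKM in siQk.

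Mthfd1l (Entrez gene 270685, chromosome 10, 3973118 to 4167081, plus strand) releases formate from folate in mitochondria. It was at 7.09, 9.57 and 6.76 RPKM in siNC and at 6.39, 6.40 and 5.04 RPKM in siQk, so that siNC replicate 3 and siQk replicate 2 nearly met. The log2 fold change was -0.55 (95% interval -0.92 to -0.17). The FDR from edgeR was 0.0347 and the unadjusted value 0.0111, and 5 of the 15 alternatives called it, including the fit without siNC replicate 3 (-0.66). With FDR below 0.05 as the only cutoff, both Aldh1l2 and Mthfd1l were called, and 6 of the 9 enzymes in all.

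Mthfd2 and Mthfd2l encode the bifunctional dehydrogenase and cyclohydrolase of mitochondria. Mthfd2 (Entrez gene 17768, chromosome 6, 83305691 to 83325908, minus strand) was at 7.44, 5.90 and 7.20 RPKM in siNC and at 9.45, 8.001 and 8.55 RPKM in siQk. The RPKM ranges were apart, yet they overlapped after division by TMM factors (6.13 to 8.28 in siNC and 7.51 to 8.98 in siQk), and the log2 fold change of 0.19 (95% interval -0.13 to 0.50) was not called under any of the 15 alternatives. Mthfd2l (Entrez gene 665563, chromosome 5, 90931117 to 91021368, plus strand) was at 7.63, 9.72 and 6.35 RPKM in siNC and at 7.94, 8.60 and 8.24 RPKM in siQk, the siQk values lying inside the siNC range. Its log2 fold change was -0.089 (95% interval -0.47 to 0.29), and the sign turned with library size only (0.065) and without siNC replicate 2 (0.073).

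Shmt2 (Entrez gene 108037, chromosome 10, 127517123 to 127522444, minus strand) encodes the mitochondrial SHMT. It was at 30.4, 28.8 and 27.5 RPKM in siNC and at 33.1, 34.95 and 27.4 RPKM in siQk, with siQk replicate 3 the lowest and siQk replicate 2 the highest of the 6 libraries. The log2 fold change was -0.017 (95% interval -0.28 to 0.24), an interval that leaves out the size seen for Shmt1, and its sign turned under 5 of the 15 alternatives.

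**Figure D2:**
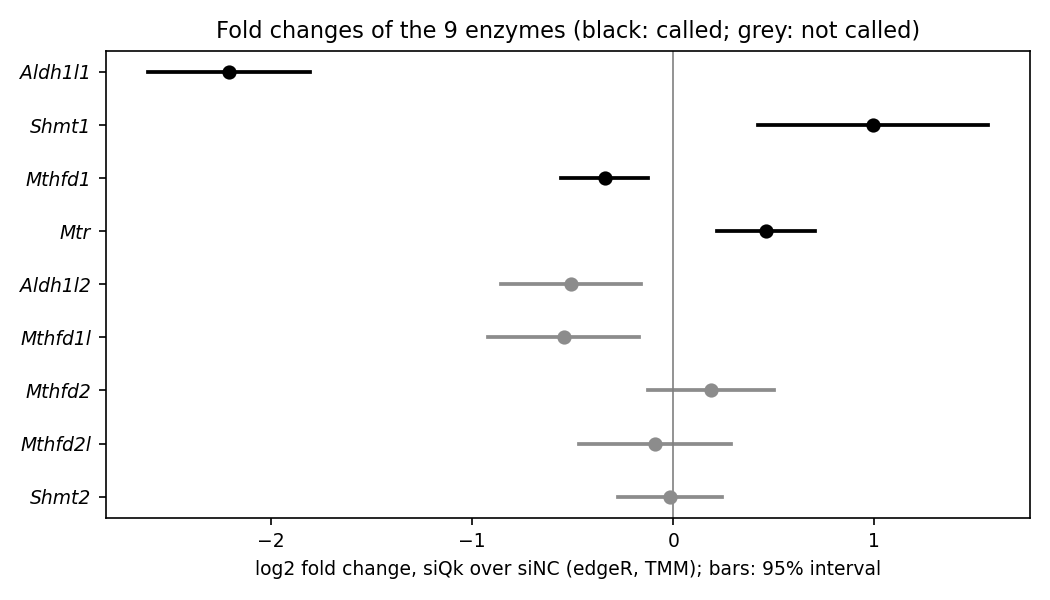
Log2 fold change of siQk over siNC for each enzyme from edgeR with TMM factors, with bars for the 95% interval, black for the 4 called genes and grey for the 5 not called. Aldh1l1 stands alone at -2.21, Shmt1 is highest at 0.99, and the values of Shmt2 and Mthfd2l lie near 0, on either side of it depending on the setting.

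Levels per length in siNC fell into groups. Aldh1l2 (38.05 ± 5.65 RPKM), Mthfd1 (36.7 ± 0.569) and Shmt2 (28.9 ± 1.46) were the most abundant (SD, n = 3 each). The SDs of Aldh1l2 and Mthfd1 overlapped, while every Shmt2 library lay below every Aldh1l2 and every Mthfd1 library. Mthfd2l, Mthfd1l, Aldh1l1 and Mthfd2 followed between 7.90 and 6.85 RPKM on average, with differences within their SDs. Mtr (5.12 RPKM) and Shmt1 (2.61 RPKM) were the lowest. In siQk the lowest mean passed to Aldh1l1 (1.69 RPKM), below Shmt1 (5.78 RPKM) and Mthfd1l (5.95 RPKM).

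Ratios between enzymes inside a library do not depend on how libraries are scaled, and 5 were computed. The mitochondrial dehydrogenase Aldh1l2 stood at 5.58, 5.39 and 5.25 times the level of cytosolic Aldh1l1 in siNC and at 22.4, 15.2 and 16.5 times in siQk. The log2 ratio rose by 1.72, from 2.43 ± 0.044 to 4.15 ± 0.30 (SD, n = 3 each). Mitochondrial Shmt2 stood at 9.42, 12.4 and 12.03 times the level of cytosolic Shmt1 in siNC and at 4.75, 5.69 and 6.47 times in siQk, and the log2 ratio fell by 1.004. The dehydrogenase and SHMT pairs thus moved in opposite directions, with no library of one group inside the range of the other. Of single tested genes, 58.3% had RPKM ranges apart in this way, and the share among ratios of other gene pairs was not computed. The single-gene log2 fold changes behind both ratios were -2.21 for Aldh1l1, -0.51 for Aldh1l2, 0.99 for Shmt1 and -0.017 for Shmt2. The Mthfd2 to Mthfd1 log2 ratio was higher in siQk by 0.54, also without overlap. Each of these 3 ratios had an exact two-sided permutation p of 0.1, the smallest that 3 libraries against 3 allow, and 0.167 after Benjamini-Hochberg adjustment over the 5 ratios, so that none could pass 0.05. The Mthfd1l to Mthfd1 ratio (log2 difference -0.19) and the Mthfd2 to Mthfd2l ratio (0.26) overlapped between groups, each with an exact permutation p of 0.5.

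**Figure D3:**
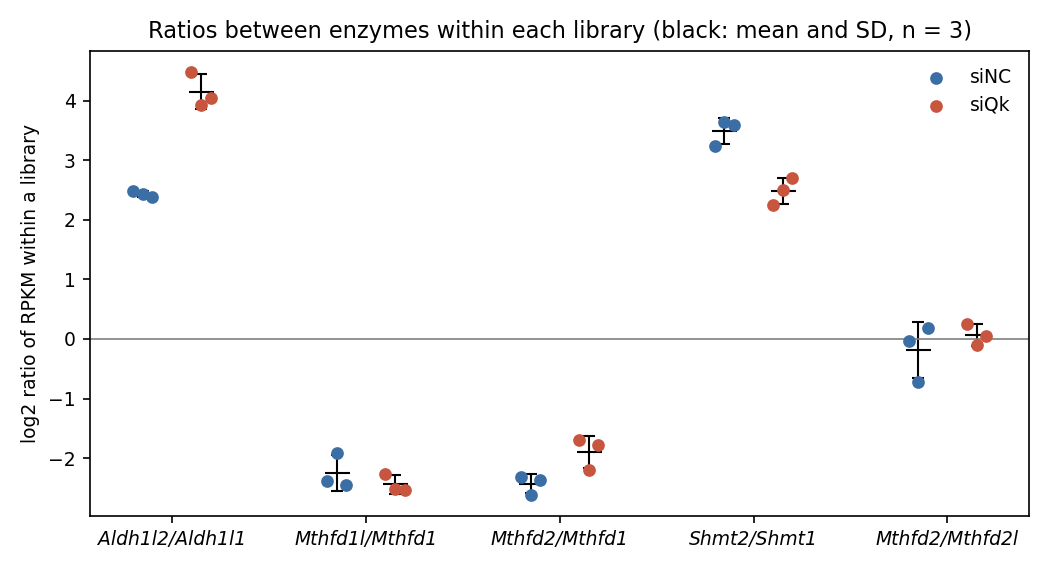
Log2 ratio of RPKM between 2 enzymes inside each of the 3 siNC (blue) and 3 siQk (red) libraries, with the mean and SD of each group in black. The Aldh1l2 to Aldh1l1 ratio is 1.72 higher in siQk and the Shmt2 to Shmt1 ratio fell by 1.004, and neither overlaps between groups.

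The rest of the pathway was read from 5 lists with 38 genes, of which 37 are listed in the files under the symbols used and 28 passed the filter on low counts. Of these, 4 were called higher and 7 lower, which is 39.3% against 31.0% of all tested genes, with a median log2 fold change of 0.043. Not tested for low counts were Folr1, Ftcd, Dmgdh, Mat1a, Ahcy, Bhmt, Bhmt2, Gnmt and Cbs, none of which exceeded 0.904 RPKM.

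In folate uptake and retention, 1 gene rose and 2 fell among 6 tested, where 13.8% of all tested genes were called higher and 17.2% lower. The reduced folate carrier Slc19a1 rose (log2 fold change 0.32), a call lost under 8 of the 15 alternatives, among them the fits without any 1 library other than siNC replicate 3 (0.28 to 0.33). The folate receptor Folr2 fell by 0.88 on the log2 scale, with 7.23 ± 1.51 RPKM in siNC and 4.4004 ± 0.957 RPKM in siQk (SD, n = 3 each). Its call was lost under 7, among them the fits without any 1 library other than siNC replicate 2 (-1.004 to -0.65). Ggh, which trims the glutamate tail that retains folate in cells, fell from 50.5 ± 5.49 to 39.6 ± 2.36 RPKM (log2 fold change -0.50) under all 15 alternatives. Fpgs, which adds that tail (0.12), the mitochondrial carrier Slc25a32 (-0.061) and the proton-coupled carrier Slc46a1 (0.23) were not called.

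Of the enzymes that use or interconvert the folate forms, 2 rose and none fell among 7 tested. The share of all tested genes called higher was 13.8%. Tyms, the thymidylate synthase, rose from 1.92 ± 0.045 to 4.56 ± 1.03 RPKM (SD, n = 3 each), with a log2 fold change of 1.10. Atic, which uses formyl-tetrahydrofolate for the last steps of purine synthesis, rose from 11.1 ± 0.826 to 18.8 ± 2.02 RPKM (log2 fold change 0.61). Both were called under all 15 alternatives. Gart, the other formyl-tetrahydrofolate user of purine synthesis (0.17), Mthfs (-0.093) and Mtfmt (0.20) were not called.

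Of the mitochondrial one-carbon donors outside serine, 3 of 5 tested fell and none rose, where 17.2% of all tested genes were called lower. Sardh, the sarcosine dehydrogenase, fell from 4.57 ± 0.325 to 2.50 ± 0.264 RPKM (log2 fold change -1.02). Amt (-0.56) and Gldc (-0.33), both of the glycine cleavage system, were also lower, the call of Gldc being lost under 7 of the 15 alternatives, among them the fits without siNC replicate 1 or 3 or siQk replicate 2 or 3 (-0.33 to -0.28). Gcsh (-0.13) and Dld (-0.059), which belong to the same system, were not called.

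None of the 3 serine synthesis genes was called, with log2 fold changes of 0.031 for Phgdh, 0.31 for Psat1 and -0.077 for Psph, whose 95% intervals reached from -0.16 to 0.22, from -0.012 to 0.63 and from -0.25 to 0.092. In the methionine cycle and transsulfuration, Cth, which makes cysteine from cystathionine, rose from 1.47 ± 0.331 to 3.37 ± 0.669 RPKM (log2 fold change 1.05). Ahcyl2 (-0.70) and Ahcyl1 (-0.35), relatives of the adenosylhomocysteine hydrolase, were lower, and the call of Ahcyl1 was lost under 8 of the 15 alternatives, among them the fits without any 1 library other than siNC replicate 3 (-0.37 to -0.26). The call of Cth was lost under 3, including the fits without siQk replicate 2 (0.90) or siQk replicate 3 (1.05). Ahcy itself, which has near-identical copies that can take its reads, was counted at 0.237 to 0.462 RPKM and is uncertain. Mat2a and Mat2b, which encode the enzyme that makes adenosylmethionine and its partner, were not called (0.065 and 0.15).

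Mitochondrial folate enzymes and serine synthesis are known targets of the transcription factor ATF4, and 12 genes of that axis were read beside them. Of 11 tested, 1 was higher (the amino acid transporter Slc7a5, 0.45) and 3 were lower (Trib3, -1.22, Slc7a11, -0.50, and Ddit3, -0.38). The share called was 36.4%, near the 31.0% of all tested genes, and Trib3 did not exceed 0.842 RPKM in any library. Atf4 itself (-0.038) and Asns (0.33) were not called, and the median was -0.038.

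Of 15 genes of the dividing cell, in which thymidylate and purine synthesis are active, 11 rose and none fell, where 13.8% of all tested genes were called higher, and their median log2 fold change was 1.399. Mki67 was at 3.17, 3.09 and 2.65 RPKM in siNC and at 13.7, 12.2 and 7.14 RPKM in siQk. Pcna, Mcm2, Mcm3 and Rrm2 were not called. Pcna had a log2 fold change of -0.064 (95% interval -0.42 to 0.29). Those of Mcm2 (0.74, interval 0.23 to 1.26), Mcm3 (0.88, 0.21 to 1.54) and Rrm2 (0.77, 0.076 to 1.47) had intervals above 0. Of the oligodendrocyte genes, Mbp, Mag and Cnp fell, and Mog was not called. Of 5 OPC markers, Cspg4, Olig1 and Olig2 rose, beside the same 13.8% of all tested genes, while Pdgfra and Sox10 were not called. The part that any of these lists plays in the levels of the 9 enzymes was not tested.

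**Figure D4:**
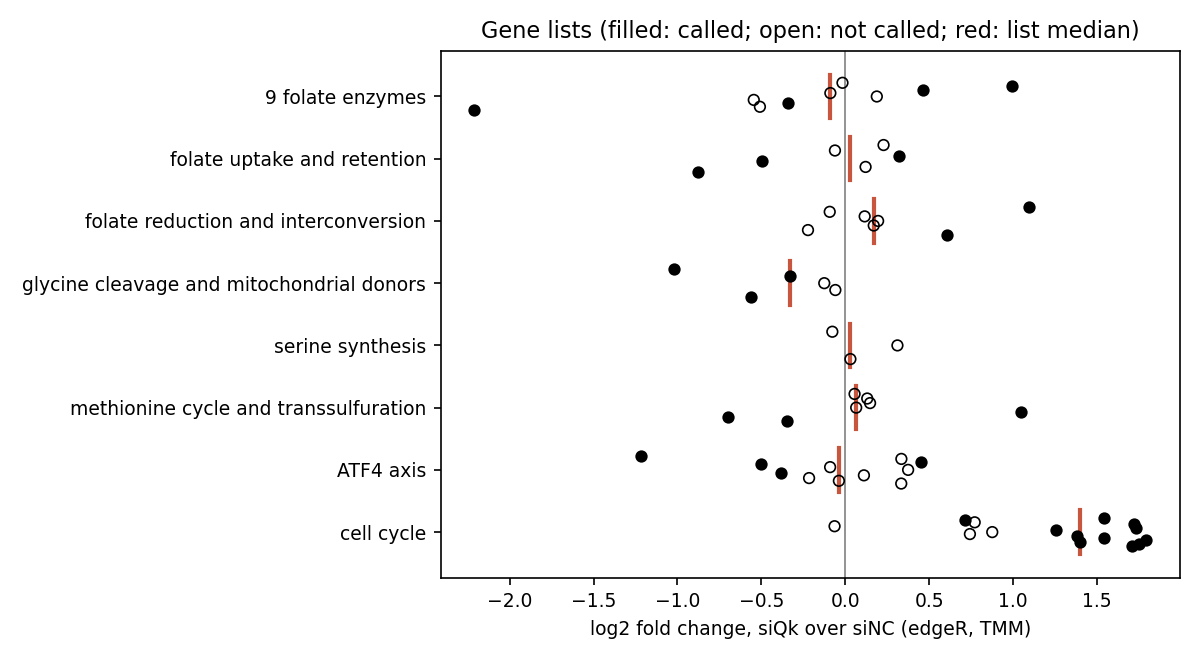
Log2 fold change of siQk over siNC for every tested gene of the 9 folate enzymes, the 5 pathway lists, the ATF4 axis and the cell cycle list, filled where called and open where not, with a red line at each list's median. The cell cycle list has a median of 1.399, and the medians of the other lists lie between -0.33 and 0.17.

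Over the 6 libraries, the log2 CPM of Aldh1l1 was most similar to that of Zfand3, Rab3gap2, Nelf, Hdhd2 and Hadhb among 10038 genes with an average logCPM over 3, with Pearson's r from 0.9978 to 0.9985. All 5 had negative log2 fold changes, from -1.4 (Hdhd2) to -0.29 (Rab3gap2), a sign that follows from how they were chosen. The likeness rests on 6 libraries that fall into 2 groups, and it is high for many genes, 809 of them passing an r of 0.95.

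**Figure D5:**
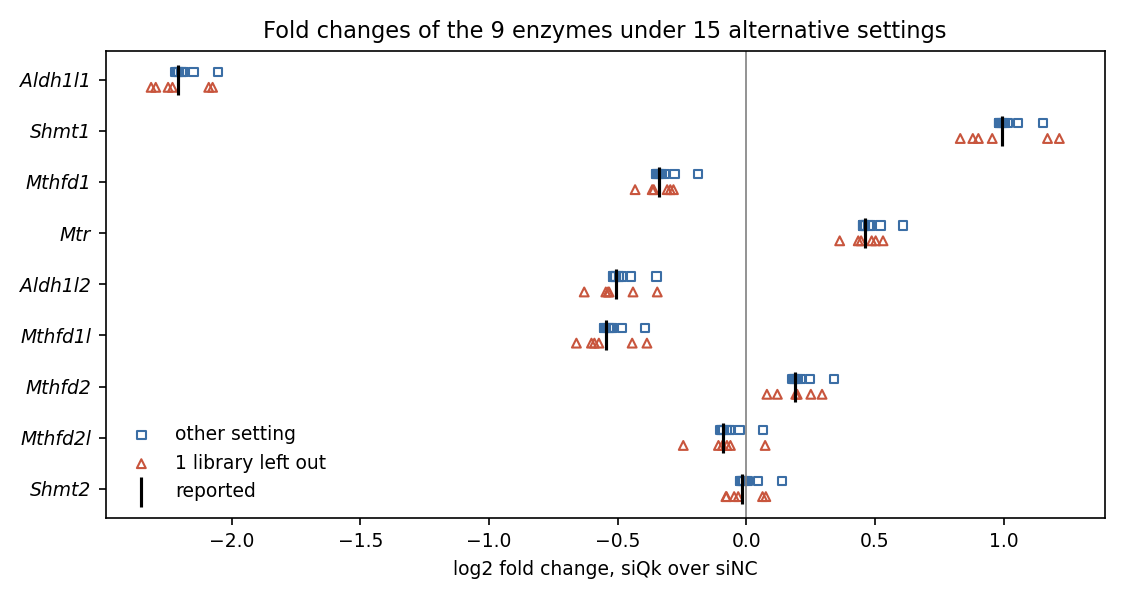
Log2 fold change of siQk over siNC for each enzyme as reported (black bar), with 1 library left out (red triangles) and under the other settings (blue squares). Aldh1l1 stays between -2.31 and -2.05 and Shmt1 between 0.83 and 1.22, while Shmt2 and Mthfd2l lie on both sides of 0.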

How the data were processed

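Polyadenylated RNA was sequenced from 3 siNC and 3 siQk libraries of mOPCs. For gene levels, the authors mapped reads to mm10 using OLego, and Quantas gave the gene values. The annotation was not given in the sources used here. The authors deposited, per gene and library, an estimated count of tags, not normalized, the exon length and an RPKM. No source used here says if a tag stands for 1 read or for a pair.

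Estimated counts were rounded to whole numbers. The 12505 genes with an average logCPM over 0 entered the quasi-likelihood test in edgeR 4.0.16 under R 4.3.3 with limma 3.58.1, with TMM factors and group as the only term. Calls needed P below 0.01 and FDR below 0.1 (Benjamini-Hochberg over these genes). The standard error was derived from the F statistic, and 95% intervals used its degrees of freedom. The script was tested on simulated data. Depth was 58166490 to 141045937 tags. Libraries of the same group differed by a chi-square per degree of freedom of 38.2 to 77.8 in siQk and 194.4 to 343.5 in siNC. Each was counted as 1 replicate, though such values alone do not show independence. The study describes them as independently cultured replicates. Ratios of RPKM were tested by exact permutation.

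Named were the 9 enzymes, Qk, called genes of the lists, uncalled genes needed to account for a list, and the 5 genes most correlated with Aldh1l1. Rn45s, Smcr8, D10Wsu102e, Gm15756 and Gm45901 were named outside that rule. Members and lists were chosen with earlier results of these data known. The symbol Mthfsl found no match. Alternatives were DESeq2 1.42.0, other scalings, filters and cutoffs, thinning to the smallest library, a replicate block and leaving out each library. Some genes of the lists are counted but not reported by name here.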

Additional observations from a re-analysis of the deposited data

How the results depend on the processing

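Qk and Aldh1l1 kept their call under all 15 alternatives, with log2 fold changes of Qk from -2.29 to -1.76. Of 135 alternative values of the 9 enzymes, 104 kept direction and side of the cutoff, 15 lost a call, 9 gained one and 7 turned sign. The sign of Shmt2 turned with upper quartile factors (0.046), library size only (0.14) and no filter on low counts (0.0070), and without siNC replicate 1 (0.063) or siQk replicate 3 (0.076), the range with 1 library left out being -0.079 to 0.076. That of Mthfd2l turned with library size only (0.065) and without siNC replicate 2 (0.073), from -0.25 to 0.073 with 1 library left out. The number of enzymes called was 4, and from 1 (without siNC replicate 2, only Aldh1l1) to 4 with 1 library left out, being 2 without siNC replicate 1 or siQk replicate 1. Of these, from 1 to 3 were lower and from 0 to 2 were higher. Lower enzymes numbered 1 with upper quartile factors and with library size only, and 4 with DESeq2, with no filter on low counts and with FDR below 0.05. Over all tested genes, 3879 were called, from 2478 to 3704 with 1 library left out (lowest without siQk replicate 1), and from 1008 to 1610 of them higher (1008 without siQk replicate 1, 1104 without siQk replicate 2). Library size only gave 1365 lower and 2989 higher. Of the genes in the 5 pathway lists, 11 were called, and from 6 to 9 with 1 library left out (7 without siNC replicate 1, 6 without siQk replicate 2 or 3). The Mthfd2 to Mthfd2l log2 ratio turned to -0.0062 without siNC replicate 2, from there up to 0.445 without siNC replicate 3, and the other 4 ratios kept their direction, from 1.55 to 1.83 for Aldh1l2 to Aldh1l1 and from -1.13 to -0.89 for Shmt2 to Shmt1. The causes were not tested, and in the fits that leave one out, fewer libraries and the library left out cannot be told apart.

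No pairing by replicate number was seen in the deviations from the group mean, taken over genes. These correlated between libraries of the same number at -0.053, -0.15 and -0.34. With 3 libraries per group, such values cannot exclude a pairing. With the replicate block, 2796 genes were called, 6 genes of the pathway lists, and 3 enzymes, 1 of them higher: Shmt1 and Aldh1l1 kept their call, Mthfd1l gained one, and Mtr (0.46) and Mthfd1 (-0.35) lost theirs. Thinning every library to the smallest depth left 3797 calls.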

Other observations

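Among 4 neuron markers tested, Snap25 and Nefl were called higher in siQk, where 13.8% of all tested genes were called higher. Syt1 (log2 fold change 0.87) and Rbfox3 (-0.57) were not called, and Stmn2 did not exceed 0.044 RPKM in any library. P2ry12, the only microglia marker tested of 5, was called lower in siQk, where 17.2% of all tested genes were called lower. It was at 0.669, 3.20 and 1.19 RPKM in siNC and at 0.152, 0.186 and 0.287 RPKM in siQk. The untested markers Cx3cr1, Csf1r, Aif1 and Itgam did not exceed 0.125 RPKM in any library.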
